A study of Homo sapiens with 6 samples.

Results

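Cancer stem cell markers and pluripotency factors are the genes most often used to tell tumour-initiating or undifferentiated cells from the bulk of a tumour. The set examined here was CD44, CD24, PROM1, EPCAM, KIT, SOX2, NANOG, LIN28B, BMI1 and MYC, and each gene was read from its brightest probe set among those annotated with exactly 1 gene symbol. Of these 10 genes, 9 had such a probe set, out of 22465 distinct genes named on the arrays. The only probe set for BMI1, a subunit of Polycomb repressive complex 1, is also annotated with a readthrough transcript of its neighbour, so BMI1 has no value of its own here.

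RNA was measured on whole-transcript arrays in OV2008 cells, an established human line labelled ovarian cancer, 3 days after transfection. The mimic group had received a synthetic miR-328-3p mimic (3 arrays) and the control group a negative control microRNA (3 arrays). Both groups are the same unmodified line grown in RPMI medium with fetal bovine serum, all 6 arrays used 100 ng of total RNA, and untransfected cells were not analysed here. The labels do not tell whether the 3 samples of a group came from separate cultures, so p-values here reflect how far these samples differ from each other, and that spread may be technical.

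Values are on a scale taken as log2, and a fold change holds on that scale only. Median signal over all probe sets lay between 4.19 and 4.23 on the mimic arrays and between 4.16 and 4.19 on the control arrays. Background was set on each array at the 95th percentile of 394 olfactory receptor genes, which are hardly transcribed outside the nose. That level lay between 4.40 and 4.47 on the mimic arrays and between 4.22 and 4.50 on the control arrays. The keratins KRT8, KRT18 and KRT19, the adhesion protein CDH1 and the claudin CLDN4, which mark epithelial cells, were all above background. Of 8 ovarian and Mullerian markers only FOLR1 and ESR1 were above background, whereas PAX8, WT1 and MUC16 were not, and ESR1 fell by 0.34 in the mimic cells (limma adjusted p = 0.0132). Of the squamous keratins KRT5 averaged 17.00 in mimic cells against 17.03 in control cells and did not pass, and KRT13 averaged 16.19 in mimic cells against 16.62 in control cells and fell by 0.43 (limma adjusted p = 0.00493). KRT14, at 5.45 in mimic cells against 5.14 in control cells, was above background and did not pass (limma adjusted p = 0.0555), and the squamous marker IVL was below background. No fibroblast marker of 5 measured was above background, and the only leukocyte and endothelial markers above it, of 5 measured in each list, were CD68 and CDH5. CD68, also a lysosomal protein of other cells, rose by 0.99 in the mimic cells, and CDH5 fell by 0.68.

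The mimic works by its guide strand. A microRNA guide loads into an Argonaute protein and pairs with messenger RNAs mainly through its seed, and pairing usually lowers the level of the target RNA. The guide is printed because every comparison is between cells given this mimic and cells given a control, with the seed (bases 2 to 8) in capitals. The sequence is from RefSeq (GRCh38.p14, chr16:67202327-67202348, minus strand).
hsa-miR-328-3p: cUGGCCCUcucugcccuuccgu
No other of the 2370 mature human microRNAs named in that table has the same bases 2 to 8. CD44 has been reported elsewhere as a miR-328 target, and target sites in the transcripts of these genes were not examined.

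The 10 genes act at different places in the cell. CD44, CD24, PROM1, EPCAM and KIT are surface proteins by which stem-like tumour cells are sorted. SOX2 and NANOG are transcription factors of the embryonic pluripotency network and bind DNA beside the octamer factor POU5F1. LIN28B is an RNA-binding protein that blocks maturation of let-7 microRNAs, MYC drives growth genes as a dimer with MAX, and BMI1 silences chromatin at cell cycle inhibitor genes.

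In the mimic cells SOX2 and CD44 fell and no gene of the set rose. The fall of SOX2 passed under all 14 alternative ways of processing, and that of CD44 under 6 of 14. Averaging a gene's probe sets is 1 of the 14 and could not change the value of SOX2, which has 1 probe set. Of the 9 genes measured, 6 were above background in both groups, namely CD44, EPCAM, CD24, SOX2, NANOG and MYC, beside 53.9% of all distinct genes on the arrays. PROM1, KIT and LIN28B were above background in neither group. A total of 8 genes passed the filter on low signal and were tested, of which 2 fell, none rose and 6 did not pass an adjusted p of 0.05. Over all 18836 genes tested, 18.0% changed, with 10.8% falling and 7.21% rising, so a count of 2 in 8 is near the share of all genes. The mimic and control arrays did not overlap for 5 of the 8 genes, beside 41.6% of all genes tested.

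**Figure D1:**
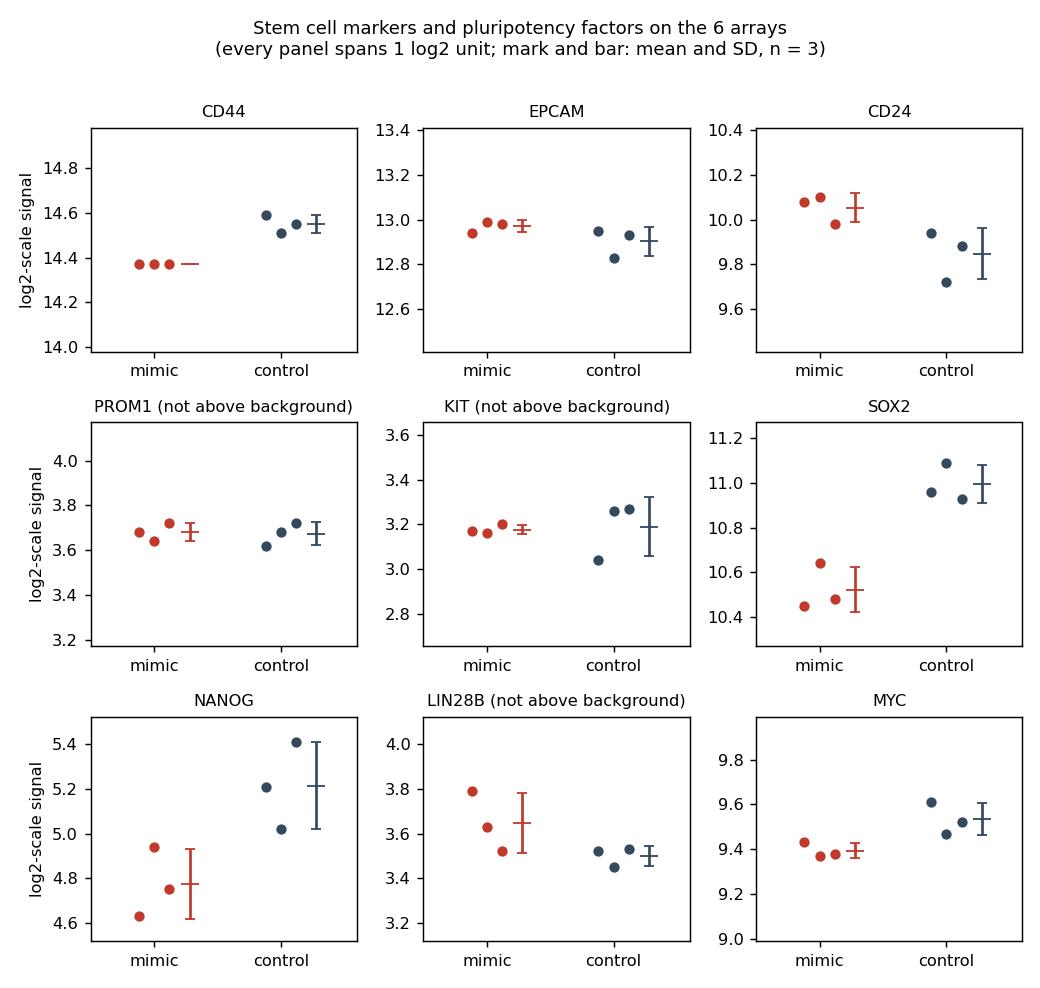
Log2-scale signal of the 9 measured genes on each array, with the 3 mimic arrays in red at the left and the 3 control arrays in dark blue at the right of each panel; marks and bars give the mean and SD (n = 3), and every panel spans 1 log2 unit. SOX2 has the widest gap between groups, with the mimic arrays between 10.45 and 10.64 and the control arrays between 10.93 and 11.09, and PROM1, KIT and LIN28B lie below background.

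CD44, the hyaluronan receptor, read 14.37, 14.37 and 14.37 on the mimic arrays against 14.59, 14.51 and 14.55 on the control arrays. Every mimic array lay below every control array, with a gap of 0.14 between the groups. The means were 14.37 ± 0.00429 in mimic cells and 14.55 ± 0.0402 in control cells (SD, n = 3 each), a log2 difference of -0.18 ± 0.0366 (SE, 95% interval -0.27 to -0.09, limma adjusted p = 0.0247), or 1.13-fold lower. The call was narrow. It held without control array 2 (adjusted p = 0.0375) and was lost without mimic array 1 (0.0774), mimic array 2 (0.102), mimic array 3 (0.0688), control array 1 (0.0546) or control array 3 (0.0915), and over all 14 alternatives the adjusted p ran from 0.00697 to 0.17. A second, dimmer CD44 probe set read 11.52, 11.57 and 11.67 on the mimic arrays against 11.82, 11.67 and 11.55 on the control arrays. Those groups overlapped, and the difference of -0.09 (95% interval -0.28 to 0.10, limma adjusted p = 0.558) did not pass. When both probe sets were averaged the difference was -0.14 and did not pass either (limma adjusted p = 0.17).

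EPCAM, an epithelial adhesion protein used to capture carcinoma cells, read 12.94, 12.99 and 12.98 on the mimic arrays against 12.95, 12.83 and 12.93 on the control arrays. The groups overlapped, and the difference of 0.07 (95% interval -0.04 to 0.18, limma adjusted p = 0.442) leaves room for a rise of at most 1.13-fold at the upper bound of the interval.

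CD24, a glycosylphosphatidylinositol-anchored mucin-like protein, read 10.08, 10.10 and 9.98 on the mimic arrays against 9.94, 9.72 and 9.88 on the control arrays. All mimic values lay above all control values, by a gap of 0.04. The difference was 0.21 ± 0.0687 (SE, 95% interval 0.04 to 0.37, limma adjusted p = 0.12) and did not pass, nor did it under any of 14 alternatives, where the adjusted p ran from 0.0548 to 0.297. The value is uncertain in another way. The identifier of this probe set places it on chromosome Y, where RefSeq lists a pseudogene of CD24. CD24 itself is listed on chromosome 6, so the probe set alone does not tell the copies apart. A line labelled ovarian cancer would come from a female donor, and whether these cells carry chromosome Y was not examined. In breast tumours a CD44-high, CD24-low surface protein profile marks stem-like cells, and surface protein was not measured here. For RNA, CD44 was 0.18 lower and CD24 0.21 higher in the mimic cells on the log2 scale. Only the CD44 difference passed, and only on the brighter CD44 probe set.

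PROM1, the pentaspan membrane protein CD133, read 3.68, 3.64 and 3.72 on the mimic arrays against 3.62, 3.68 and 3.72 on the control arrays, below background on all 6. KIT, the receptor for stem cell factor, read 3.17, 3.16 and 3.20 on the mimic arrays against 3.04, 3.26 and 3.27 on the control arrays. KIT lay under the filter on low signal, and without the filter its difference was -0.01 (95% interval -0.22 to 0.19, limma adjusted p = 0.969). A fall of genes this dim could hardly show.

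SOX2 read 10.45, 10.64 and 10.48 on the mimic arrays against 10.96, 11.09 and 10.93 on the control arrays. The groups were separated by 0.29, the widest gap in the set. The means were 10.52 ± 0.103 in mimic cells and 10.99 ± 0.0843 in control cells (SD, n = 3 each), a log2 difference of -0.47 ± 0.0695 (SE, 95% interval -0.64 to -0.31, limma adjusted p = 0.00711). That is 1.39-fold lower, or a change of -28.0% on this scale. SOX2 passed under all 14 alternatives, with differences between -0.53 and -0.43 and adjusted p between 0.00428 and 0.0311. SOX2 lies within SOX2-OT, a long noncoding RNA gene whose probe set averaged 4.14 ± 0.0428 in mimic cells and 4.35 ± 0.0853 in control cells (SD, n = 3 each) and was above background in neither group.

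NANOG read 4.63, 4.94 and 4.75 on the mimic arrays against 5.21, 5.02 and 5.41 on the control arrays. All mimic values were below all control values, by a gap of 0.09, but replicates spread widely and the signal lay as little as 0.16 above background in mimic cells and 0.52 in control cells. The difference of -0.44 ± 0.127 (SE, 95% interval -0.74 to -0.14) was close in size to that of SOX2 but did not pass (limma adjusted p = 0.0793), and under 14 alternatives the adjusted p ran from 0.0574 to 0.212. NANOG has many pseudogenes, among them near-identical NANOGP8, so its value is uncertain. The tandem copy NANOGP1 averaged 3.48 in mimic cells and 3.54 in control cells, below background.

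MYC read 9.43, 9.37 and 9.38 on the mimic arrays against 9.61, 9.47 and 9.52 on the control arrays. The groups did not overlap, with a gap of 0.04. The difference of -0.14 ± 0.0524 (SE, 95% interval -0.27 to -0.01, limma adjusted p = 0.162) did not pass. LIN28B read 3.79, 3.63 and 3.52 on the mimic arrays against 3.52, 3.45 and 3.53 on the control arrays, below background throughout, with a difference of 0.15 (95% interval -0.05 to 0.35, limma adjusted p = 0.355).

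**Figure D2:**
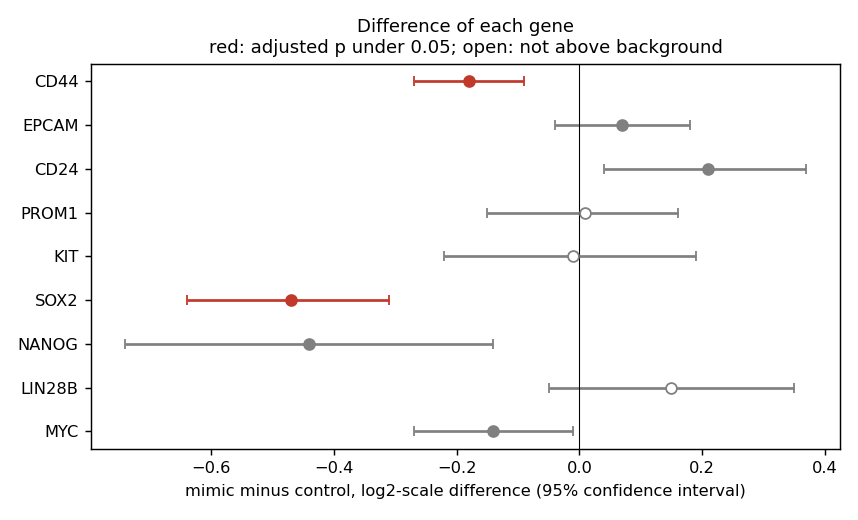
Difference between mimic and control arrays for the 9 measured genes on the log2 scale, with 95% confidence intervals from the limma fit (KIT from the fit without a filter on low signal). Red marks SOX2 at -0.47 and CD44 at -0.18, which passed; open circles mark PROM1, KIT and LIN28B, which were not above background.

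SOX2 and NANOG are known to be switched on in embryonic stem cells by POU5F1 and SOX2 bound side by side, so their promoter sequences are given, from 250 bases before to 50 bases after the RefSeq start. Capitals mark matches to the octamer core TTTGCAT and the SOX core ACAATG, searched on both strands. The windows are GRCh38.p14 chr12:7789152-7789451 for NANOG and chr3:181711675-181711974 for SOX2, both on the plus strand.
NANOG: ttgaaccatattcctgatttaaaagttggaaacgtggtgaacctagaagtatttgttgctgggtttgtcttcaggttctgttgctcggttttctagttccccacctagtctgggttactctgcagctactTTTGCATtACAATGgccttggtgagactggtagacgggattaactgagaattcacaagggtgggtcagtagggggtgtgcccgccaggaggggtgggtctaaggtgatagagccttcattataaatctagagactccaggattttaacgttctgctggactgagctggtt
SOX2: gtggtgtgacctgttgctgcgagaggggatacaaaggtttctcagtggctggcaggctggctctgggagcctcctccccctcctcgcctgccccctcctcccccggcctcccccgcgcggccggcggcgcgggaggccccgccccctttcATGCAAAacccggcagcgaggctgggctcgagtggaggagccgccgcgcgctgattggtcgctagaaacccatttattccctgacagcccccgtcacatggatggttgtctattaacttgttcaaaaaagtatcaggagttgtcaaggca
The NANOG window holds the octamer core at position -120 and the SOX core at position -112 from the start, 1 base apart and on the same strand. This composite, TTTGCATNACAATG, which overlaps the matches to both cores, occurred in 3 of 35116 promoter windows of the same length (0.00854%). The SOX2 window holds the octamer core alone, on the minus strand at position -100. Sequence outside these windows, enhancers included, was not searched. The octamer core occurred in 4.46% of all windows and the SOX core in 10.8%. Promoters of 7 of the 9 measured genes were in the table, and among the other 5 only LIN28B held either core, a SOX core at position -140. POU5F1 itself averaged 4.19 ± 0.0710 in mimic cells and 4.24 ± 0.0406 in control cells (SD, n = 3 each), below background in both.

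Most of the remaining pluripotency network was not above background, and no member tested passed. Of 17 members tested none rose, none fell and 17 did not pass in limma, 0% called beside 18.0% of all genes, with 3 at an unadjusted p under 0.05. Of the 24 with a probe set of their own, 7 were above background, beside 53.9% of all distinct genes. The list's median difference was 0.03, beside 0.01 for all genes tested. The members with the smallest p were the methyltransferase DNMT3B, at 5.93 ± 0.0210 in mimic cells and 6.12 ± 0.0404 in control cells (-0.19, limma adjusted p = 0.0916), and the transcription factor KLF4, at 5.62 ± 0.0320 in mimic cells and 5.39 ± 0.0849 in control cells (0.23, limma adjusted p = 0.101; SD, n = 3 each). DNMT3B passed after median centring of the arrays (-0.23, limma adjusted p = 0.0473), against adjusted p up to 0.224 under the other alternatives.

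Among 15 tested SOX family genes, including SOX2-OT, SOX15 rose and the other 14 did not pass, 6.67% called beside 18.0% of all genes. Only 5 of the 20 genes in this list were above background in both groups, beside 53.9% of all distinct genes. A change of those below it could hardly show. SOX15, a factor of epithelial and muscle progenitors in the mouse, read 7.10, 7.15 and 7.09 on the mimic arrays against 6.25, 6.19 and 6.43 on the control arrays. It was 1.77-fold higher (0.83 ± 0.0756 SE, limma adjusted p = 0.00128), so SOX15 and SOX2 moved in opposite directions.

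Of 19 other stem cell markers tested, 3 rose, 3 fell and 13 did not pass, 31.6% called beside 18.0% of all genes, with a median of -0.02. The aldehyde dehydrogenase ALDH1A3, which contributes to the ALDEFLUOR stem cell assay, read 13.09, 13.10 and 13.01 on the mimic arrays against 13.73, 13.77 and 13.78 on the control arrays, 1.61-fold lower. The tetraspanin CD9 was 1.26-fold lower (-0.33, limma adjusted p = 0.0151). The efflux pump ABCG2, which defines side population cells, rose by 0.52 and the adhesion molecule ALCAM, or CD166, by 0.32. Mimic and control arrays did not overlap for these named markers, beside 41.6% of all genes tested. The markers were picked for the largest changes that passed, so that separation adds nothing to their calls.

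Several genes of MYC's own network changed. Of 21 tested family members and cofactors, 5 rose, 3 fell and 13 did not pass, 38.1% called beside 18.0% of all genes, with a median of 0.03. The rises numbered 3 when control array 2, control array 3 or mimic array 1 was omitted, with 3 falls each time, and with the replicate block 3 rose and 4 fell. MXD1, which competes with MYC for MAX and represses its targets, read 8.42, 8.48 and 8.58 on the mimic arrays against 7.01, 7.16 and 7.01 on the control arrays. It was 2.70-fold higher (1.43 ± 0.0681 SE, limma adjusted p = 0.000145). MXI1, a relative with the same role, went the other way at 7.10, 6.96 and 7.00 on the mimic arrays against 7.63, 7.51 and 7.56 on the control arrays, 1.46-fold lower (limma adjusted p = 0.00275). The histone methylation cofactor WDR5, which helps recruit MYC to chromatin, rose by 0.38 and the ATPase RUVBL1 fell by 0.33. MAX averaged 6.48 in mimic cells and 6.68 in control cells and did not pass.

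Of 52 tested targets that MYC is known to induce, 7 rose, 8 fell and 37 did not pass, 28.8% called beside 18.0% of all genes, with a median of 0.04. That balance depends on the scaling and on single arrays. Centring the arrays gave 4 rises and 9 falls, and the replicate block 4 and 8. Omitting control array 2 or mimic array 2 or 3 gave 4 rises and 7 falls. Omitting control array 3 or mimic array 1 gave 4 and 8. All 52 genes were above background, beside 53.9% of all distinct genes, so the list and all genes differ in signal. With the lowest 50% of probe sets left out, 18 of the 52 passed, beside 3864 of 14090 genes. The nucleoside diphosphate kinase NME1 was 1.99-fold lower, at 6.42, 6.32 and 6.30 on the mimic arrays against 7.34, 7.39 and 7.30 on the control arrays (limma adjusted p = 0.000315). Prohibitin, PHB1, fell by 0.59. Hexokinase HK2 rose by 0.72 and the spermidine synthase SRM by 0.54. NME1 shares sequence with NME2, so its value is uncertain. Of 14 genes MYC is known to repress, 7 rose, none fell and 7 did not pass, 50% rising beside 7.21% of all genes. The median was 0.30 beside 0.01 for all genes tested, and 5 to 6 rose when an array was left out. The list was chosen with earlier results of these data known, so its share is not a test of MYC activity. NDRG1, a stress- and hypoxia-responsive gene, was 3.52-fold higher (1.82 ± 0.0524 SE, limma adjusted p = 4.56e-05), and the cell cycle inhibitor CDKN1A was 1.65-fold higher, at 8.03, 7.77 and 7.68 on the mimic arrays against 7.10, 7.12 and 7.10 on the control arrays. NDRG1 is also known to be induced by hypoxia and CDKN1A by p53.

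**Figure D3:**
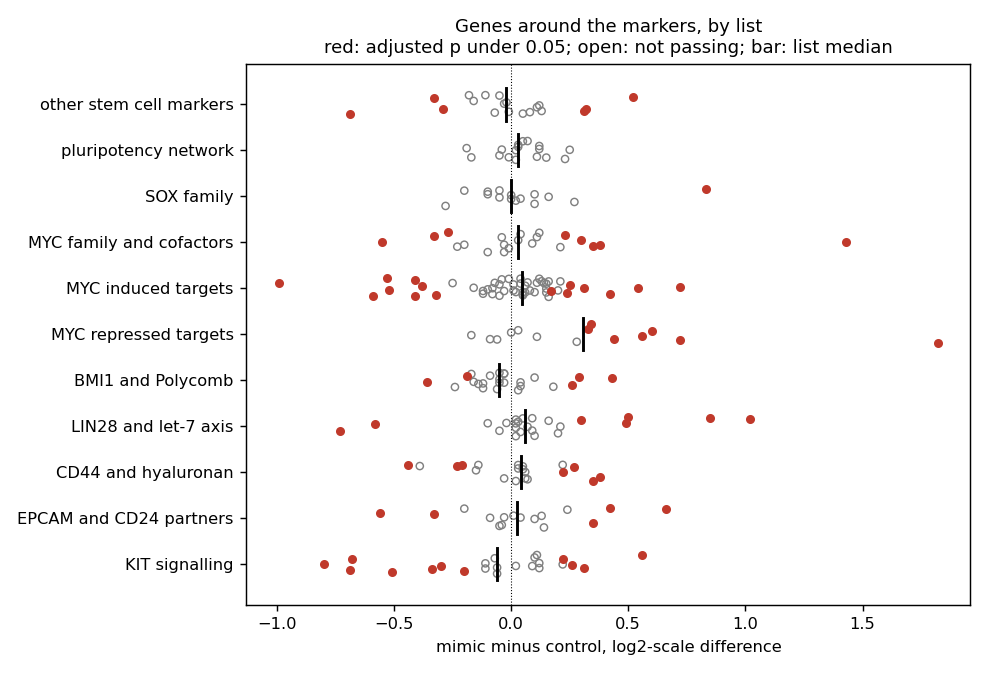
Log2-scale difference between mimic and control arrays for every tested gene of the 11 lists, 1 point per gene, red where the limma adjusted p was under 0.05 and open where it was not; the black bar is the list median. The median of MYC-repressed targets stands at 0.30, the other medians lie between -0.06 and 0.06, and MXD1 at 1.43 and NDRG1 at 1.82 are the points farthest to the right.

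In the LIN28 and let-7 axis 24 genes were tested, of which 5 rose, 2 fell and 17 missed the threshold, 29.2% called beside 18.0% of all genes, with a median of 0.06. Only 3 rises were left when control array 1 or 2 or mimic array 1 or 3 was omitted, with 2 falls each time. DICER1, the nuclease that cuts microRNA precursors, read 12.12, 12.13 and 12.15 on the mimic arrays against 11.08, 11.09 and 11.17 on the control arrays. It was 2.03-fold higher (1.02 ± 0.0420 SE, limma adjusted p = 9.69e-05). The repressor E2F6 was 1.80-fold higher. The let-7i gene MIRLET7I, read here from a probe set on its precursor or host transcript and not the mature microRNA, was 1.66-fold lower, at 8.11, 8.18 and 7.99 on the mimic arrays against 8.83, 8.84 and 8.80 on the control arrays. The cyclin CCND2, a reported let-7 target, was 1.49-fold lower. LIN28A, the paralogue of LIN28B, was also below background, at 4.13 in mimic cells and 4.06 in control cells.

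Among 24 tested Polycomb genes other than BMI1, 3 rose, 2 fell and 19 missed the threshold, 20.8% called beside 18.0% of all genes, and a median of -0.05. SCML2, a Polycomb-associated chromatin protein, rose by 0.43 and the complex 2 subunit SUZ12 by 0.29, and the methyltransferase EZH1 fell by 0.36. PHC3, a BMI1 partner in complex 1, passed at -0.19 (limma adjusted p = 0.0471) but was lost in each of the 6 fits that omit an array. Its adjusted p was then 0.142, 0.14 and 0.0704 for mimic arrays 1, 2 and 3 and 0.109, 0.119 and 0.0717 for control arrays 1, 2 and 3 omitted, and ran from 0.0305 to 0.142 over all 13 alternatives. For this list 2 rose and 1 fell without control array 1, 2 or 3 or mimic array 1 or 2. Centring the arrays gave 2 rises and 5 falls, and leaving out the lowest 50% of probe sets gave 3 rises and 5 falls.

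KIT was not above background, whereas its ligand was, and fell. KITLG, stem cell factor, read 12.97, 12.96 and 12.96 on the mimic arrays against 13.84, 13.68 and 13.78 on the control arrays. It was 1.75-fold lower (-0.80 ± 0.0478 SE, limma adjusted p = 0.000291). Of 23 tested genes of the KIT signalling list, 4 rose, 7 fell and 12 did not pass, 47.8% called beside 18.0% of all genes, with a median of -0.06. Without mimic array 1 the count that passed was 6 in place of 11, with 2 rises and 4 falls, and without mimic array 2 it was 7, with 3 rises and 4 falls. Falls numbered 4 without control array 2, and rises numbered 2 without control array 3. MITF, the melanocyte transcription factor downstream of KIT, was 1.61-fold lower at 9.07, 9.17 and 9.21 on the mimic arrays against 9.76, 9.89 and 9.85 on the control arrays. The adaptors GRB2 and SHC1 rose by 0.56 and 0.31. SHC1 stood at an adjusted p of 0.0501 without mimic array 2, and between 0.00664 and 0.0501 over its 13 alternatives. Both adaptors are known to serve many receptors besides KIT.

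Partners of CD44 in hyaluronan turnover and cell anchoring moved both ways, with 4 rising, 3 falling and 13 missing the threshold among 20 tested, 35% called beside 18.0% of all genes, and a median of 0.04. The hyaluronan-degrading proteins CEMIP and CEMIP2 went in opposite directions: CEMIP averaged 5.12 ± 0.0199 in mimic cells and 4.74 ± 0.0144 in control cells, and CEMIP2 averaged 7.66 ± 0.0737 in mimic cells and 8.10 ± 0.0372 in control cells (SD, n = 3 each; limma adjusted p = 0.0108 and 0.00441). ADAM17, a sheddase that cleaves surface proteins, rose by 0.35. Merlin, NF2, which links CD44 to growth control, passed at -0.23 (limma adjusted p = 0.0233). NF2 was lost without mimic array 1 or 2 (adjusted p = 0.0803 and 0.086) and without control array 1, 2 or 3 (0.0599, 0.0718 and 0.0788), and its adjusted p ran from 0.0147 to 0.086 over 13 alternatives. Without control array 3 the count for this list was 4 in place of 7, with 3 rises and 1 fall, and without control array 2 or mimic array 1 there were 4 rises and 1 fall.

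Among 16 tested partners of EPCAM and CD24, 3 rose, 2 fell and 11 missed the threshold, 31.2% called beside 18.0% of all genes, with a median of 0.03. CLDN7, a claudin that binds EPCAM, read 11.06, 11.02 and 10.88 on the mimic arrays against 10.52, 10.61 and 10.57 on the control arrays, 1.34-fold higher (limma adjusted p = 0.00593). CDH1, E-cadherin, was 1.58-fold higher. The WNT factor LEF1, which joins the cleaved EPCAM tail in the nucleus, fell by 0.56 and CD9 fell as above. All 5 epithelial markers, CDH1 among them, also rose, beside 7.21% of all genes tested. CLDN4 passed narrowly (limma adjusted p = 0.0444), and of the 5 only CDH1 was examined under the alternative ways of processing. The summed linear signal of the 5 epithelial markers lay between 59000 and 64300 on the mimic arrays and between 50700 and 51400 on the control arrays. The sum of 4 squamous markers was lower in the mimic cells. It lay between 197000 and 217000 on the mimic arrays and between 229000 and 244000 on the control arrays. Of the 3 squamous markers tested only 1, KRT13, fell (-0.43), while KRT5 (-0.03) and KRT14 (0.31) did not pass. The lower sum is therefore not a fall of the whole list. The part of either marker list in the CLDN7 and EPCAM values was not tested. Fewer cells of a type and less RNA per cell cannot be told apart in bulk RNA.

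**Figure D4:**
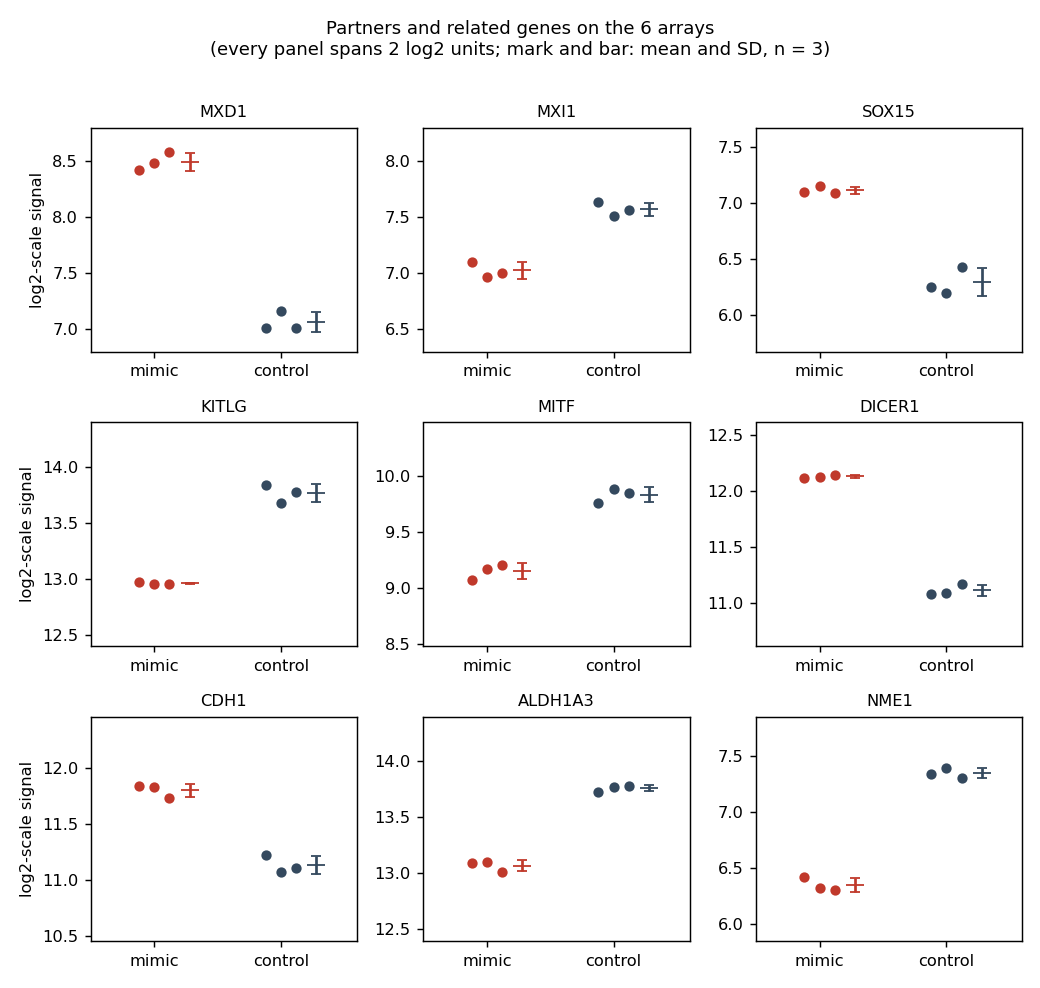
Log2-scale signal of 9 related genes on each array, with the 3 mimic arrays in red at the left and the 3 control arrays in dark blue at the right of each panel; marks and bars give the mean and SD (n = 3), and every panel spans 2 log2 units. MXD1 and DICER1 are at least 8.42 and 12.12 on the mimic arrays against at most 7.16 and 11.17 on the control arrays, and KITLG, MITF and ALDH1A3 are lower in the mimic cells.

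Genes with the array pattern most like that of SOX2 were KLHDC1, CHMP4C and YIPF6, by the root mean square difference over the 6 arrays of values centred on each gene's mean, among 16873 genes compared. That difference was 0.0342, 0.0372 and 0.0394 on the log2 scale, and the genes stood at -0.47, -0.49 and -0.45. The genes most like CD44 were LPAR1, LNPK and TIMM17A, at 0.0126, 0.0130 and 0.0135, with differences between mimic and control arrays of -0.18, -0.16 and -0.16. LPAR1, LNPK and TIMM17A did not pass (limma adjusted p = 0.0555, 0.0572 and 0.0646).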

How the data were processed

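Per the submitters' processing notes, MAS5 is the only tool named, with no role or version. How probes were summarized, how background was treated and which genome build was used is not given in the sources used here. Each probe set has a single value on each array, and these values, as deposited by the authors, were taken as log2 because values run from 1.62 to 19.93, which is too narrow for linear signal. The deposited normalization was kept. Groups came from sample titles. The description field of those given the mimic contradicts this and names the control.

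The table has 70523 probe sets, of which 2995 are controls and were dropped. The 25% with the lowest mean over 6 arrays was not tested either, which left 50646. Of 67528 transcript clusters, 23781 carry 1 symbol, 1543 several and 42204 none. Probe sets with several symbols name no gene here. All 10 symbols matched RefSeq (GRCh38.p14). Where a gene had several probe sets, the brightest stood for it.

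The comparison was made in R 4.3.3 with limma 3.58.1 (lmFit, eBayes with trend, two-sided, Benjamini-Hochberg over all tested probe sets, threshold 0.05). An exact permutation test of 3 arrays against 3 cannot go below 0.1 and was not used. On simulated data for this comparison (50646 probe sets, 50 changed per size), the fit recovered 100% of genes lowered by a log2 change of -1 and 44% of those at -0.5, and 40% of those raised by 0.5 and 98% by 1. Far fewer probe sets were changed in the simulation than in these data, where 18.0% of tested genes were called. Because the adjusted p depends on that share, the recovery rates do not give the share of changes missed here. Arrays have no read depth, and 3 per group limits the precision.

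The genes, the 11 lists and the tests were chosen with earlier results of these data known. From each list the text names up to 2 genes with the largest rise and 2 with the largest fall that passed, or else the 2 with the smallest p, and, for genes of the set that passed, the 3 most alike, passing over uncharacterised loci, olfactory receptors and small RNA genes. SOX2-OT, NANOGP1, POU5F1, LIN28A, MAX and the promoter motifs were chosen after values were seen. The lists share 5 genes. The 18.0% given beside the lists is over all tested genes, part of which lay below background. A higher share in a list of brighter genes was not separated from signal level. Figures were drawn with matplotlib 3.10.9.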

Additional observations from a re-analysis of the deposited data

How the results depend on the processing

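Alternatives were quantile normalization, centring each array on its median, no filter, leaving out the lowest 50%, limma without trend, robust limma, a replicate block, averaging a gene's probe sets and leaving out each array. SOX2 kept its fall under all 14. Averaging probe sets could not change the values of genes with 1 probe set, among them SOX2, CD24 and NANOG. The count of genes of the set that changed, 2, was 1 in limma without trend, 1 with averaged probe sets and 1 with the replicate block, since CD44 was lost (adjusted p = 0.0908, 0.17 and 0.0692), and from 1 to 2 when an array was left out. PROM1, at 0.01, turned to -0.03 with centring, -0.02 with quantile normalization, -0.02 without control array 1 and -0.01 without mimic array 3, with a range of -0.02 to 0.03 when an array was left out. Counts for the lists moved as follows: the pluripotency network had 1 with centring; Polycomb had 3 in limma without trend, 3 without a filter and 8 with the lowest 50% left out, against 5; CD44 and hyaluronan had 4 with quantile normalization, against 7; KIT signalling had 7 with the replicate block, against 11. Leaving out an array gave 3 to 4 for Polycomb, 4 to 6 for CD44 and hyaluronan and 6 to 8 for KIT signalling. All changed genes numbered 3392, and 2105 to 2704 when an array was left out, with 2193 without control array 3 and 2105 without mimic array 2. With centring 30.4% of changed genes rose in place of 40.0%. Of 34 named list genes that passed, 30 passed under every alternative run. The exceptions were PHC3, NF2, SHC1 and CD9, the last of which had an adjusted p of 0.0525 with the replicate block. Whether replicate numbers pair the samples is not settled. Deviations from group means of same-numbered arrays correlated at 0.1416, -0.04968 and 0.1822. Mimic arrays 1 and 3 correlated best with the control array of the same number, and mimic array 2 correlated best with control array 1. Deviations within so few arrays are not independent of each other, so these correlations cannot decide it. The count of changed genes was 2545 with the replicate block. The causes of these shifts were not tested. The number of measured genes above background was 6, 5 at the 99th percentile of olfactory receptors, where NANOG was lost, and 6 at the 90th percentile or at the array median.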
